A study of Mus musculus with 6 samples.

Results

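Mcm2, Mcm4 and Mcm5, subunits of the helicase that unwinds DNA for replication, and Mad2l1, a protein of the spindle checkpoint, were followed across 6 two-colour arrays of cultured mouse airway smooth muscle cells. Every probe whose platform annotation gives 1 of these symbols was taken. That gave 5 of the 8734 probes in the deposited table and 4 of its 5755 named genes: 1 probe each for Mcm2, Mcm4 and Mcm5, and 2 for Mad2l1. The 4 genes were chosen by their fitted log2 ratio on these same arrays, where an earlier fit had called them lower in transgenic cells. Their ratios, and how these differ with dye and array set, are therefore described here and not tested. Tests are kept for other genes of the pathway, whose lists were also drawn up with earlier results of these data known.

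Each array set RNA of 2AR-OE cells against RNA of NTG cells. The 2AR-OE mice carry an overexpressed receptor transgene and the NTG mice carry none; both kinds of culture grew out of pieces of trachea. The design asks how the transgene changes gene expression in these cells. The dye of the transgenic RNA was Cy5 on 2A, 2B, 1A and 1B, and it was Cy3 on 2C and 1C; the arrays named 2 and the arrays named 1 are called sets 2 and 1, 3 arrays each. The labels do not say what the set numbers or letters stand for, nor that arrays came from separate cultures or animals, so the spread between arrays may be technical. All cultures were kept in medium with serum and passaged repeatedly before RNA was taken. The sources used here name no promoter for the transgene, and no strain or age of the mice.

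Every value is a log2 ratio whose direction is likely transgenic over nontransgenic: the channel named first on the 4 arrays of the larger orientation holds the transgenic RNA, while the titles of those arrays name the NTG RNA first. If the ratio runs the other way, every sign below turns. The columns of 2C and 1C were taken as already turned to the same direction, which the labels do not state. The spread of ratios differed between arrays, with an interquartile range of 0.751 on 1C and 0.378 to 0.554 on the other 5 arrays. A ratio carries no level, so the labelled cell type could not be checked by the abundance of smooth muscle markers.

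The MCM proteins form a ring of 6 different subunits, Mcm2 to Mcm7, that is loaded onto replication origins in G1 and becomes the motor of the replication fork in S phase. Their genes are classical targets of the E2F transcription factors, which the retinoblastoma protein holds in check until cyclin-dependent kinases release them. Mad2l1 encodes Mad2, which binds Cdc20 at unattached kinetochores and so keeps the anaphase-promoting complex inactive until all chromosomes are attached. Growth of airway smooth muscle cells is a recognised feature of the thickened asthmatic airway, and agents that raise cyclic AMP are known to slow it in culture.

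RefSeq promoter windows (GRCm38.p6, 250 bases before to 50 after the gene start, in the direction of the gene) were at hand for 3 of the 4 genes; Mcm4 is named only. They are shown because the genes belong to the cell cycle, which cyclic AMP is known to slow in these cells. Capitals mark matches on either strand to 6 motifs: the cyclic AMP response element TGACGTCA, its core TGACG, the E2F motifs TTTCGCGC and TTTGGCGC, the cell cycle homology region TTTGAA, the CCAAT box and the GC box GGGCGG. The core TGACG lies within the full element, and the E2F matches in Mcm5 overlap each other.
Mcm2, chr6:88898731-88899030, minus strand: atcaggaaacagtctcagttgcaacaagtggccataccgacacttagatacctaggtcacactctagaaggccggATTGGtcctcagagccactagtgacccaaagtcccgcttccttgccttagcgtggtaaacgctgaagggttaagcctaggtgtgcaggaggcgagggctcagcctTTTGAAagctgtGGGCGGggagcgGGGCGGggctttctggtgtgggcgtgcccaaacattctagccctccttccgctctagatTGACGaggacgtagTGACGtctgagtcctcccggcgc
Mcm5, chr8:75109259-75109558, plus strand: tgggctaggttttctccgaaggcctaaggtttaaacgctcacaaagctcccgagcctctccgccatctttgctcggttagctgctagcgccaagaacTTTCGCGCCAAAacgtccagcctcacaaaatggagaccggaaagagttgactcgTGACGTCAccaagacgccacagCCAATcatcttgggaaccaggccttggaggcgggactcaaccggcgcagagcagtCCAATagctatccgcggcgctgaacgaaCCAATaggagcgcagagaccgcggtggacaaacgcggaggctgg
Mad2l1, chr6:66534971-66535270, plus strand: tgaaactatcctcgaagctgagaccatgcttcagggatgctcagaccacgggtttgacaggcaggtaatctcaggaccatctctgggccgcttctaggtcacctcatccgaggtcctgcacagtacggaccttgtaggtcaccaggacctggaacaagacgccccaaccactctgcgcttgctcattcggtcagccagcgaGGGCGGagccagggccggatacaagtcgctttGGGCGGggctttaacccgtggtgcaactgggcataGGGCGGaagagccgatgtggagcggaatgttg

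The Mcm5 window held the full cyclic AMP response element, which 1.79% of all 32851 promoter windows held, at position -99 from the start. It also held overlapping E2F matches at -153 and -149, a motif found in 0.813% of all windows, and 3 CCAAT boxes, found in 37.4%. The Mcm2 window held the core TGACG at positions 14 and 28 after the start (20.8% of all windows hold it), TTTGAA at -70 (17.9%), a CCAAT box on the other strand and 2 GC boxes (35.7%). The Mad2l1 window matched the GC box alone, at 3 places. The motifs were chosen after the sequences had been seen; these are matches of letters, and binding was not measured.

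Mcm2 encodes a subunit whose amino-terminal tail also binds histones. Its log2 ratio with transgenic RNA in Cy5 was -0.44 on 2A, -0.31 on 2B, -0.05 on 1A and -0.18 on 1B; with transgenic RNA in Cy3 it was -0.78 on 2C and -0.55 on 1C. All 6 values lay below 0, and both Cy3 arrays lay below all 4 Cy5 arrays. The fitted ratio, which weights both orientations equally, was -0.45 ± 0.08 (standard error of the limma fit, n = 6 arrays), or 1.37-fold lower, and 5.79% of the 6807 fitted rows lay lower. In bulk RNA a smaller share of cycling cells and less RNA per cycling cell cannot be told apart.

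Mcm4 encodes a subunit of the catalytic core of the ring. Its ratio was -0.38 on 2A, -0.38 on 2B, -0.20 on 1A and -0.01 on 1B with transgenic RNA in Cy5, against -0.64 on 2C and -0.51 on 1C with transgenic RNA in Cy3. Array 1B thus showed next to no difference, and the order of the arrays resembled that of Mcm2. The fitted ratio was -0.41 ± 0.08 (SE, n = 6), or 1.33-fold lower, with 7.38% of rows lower.

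Mcm5 encodes a subunit at the gate between Mcm2 and Mcm5 through which the ring opens onto DNA. It read -0.53 on 2A, -0.35 on 2B, -0.14 on 1A and -0.11 on 1B with transgenic RNA in Cy5. With transgenic RNA in Cy3 it read -0.79 on 2C and -1.40 on 1C. The value on 1C, the array with the widest spread, was the lowest of all member values, and 2.32% of rows lay lower on that array. The fitted ratio was -0.69 ± 0.11 (SE, n = 6), or 1.61-fold lower; without 1C it was -0.54, and on the 4 Cy5 arrays alone -0.28.

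Mad2l1 averaged over its 2 probes read -0.59 on 2A, -0.47 on 2B, -0.28 on 1A and -0.88 on 1B with transgenic RNA in Cy5, and -0.71 on both 2C and 1C with transgenic RNA in Cy3. The orientations overlapped, while those of the 3 helicase genes did not. The share of all rows with separate orientations was not counted, so nothing is read from this. The fitted ratio was -0.63 ± 0.09 (SE, n = 6), or 1.55-fold lower, with 2.69% of rows lower. Its probes differed in scatter: probe 426406 ran from -0.71 to -0.37 with a median of -0.49, and probe 620733 ran from -1.34 on 1B to -0.19 on 1A with a median of -0.67. Fitted alone, the probes gave -0.51 ± 0.08 and -0.76 ± 0.17, both below 0 on 6 of 6 arrays.

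**Figure D1:**
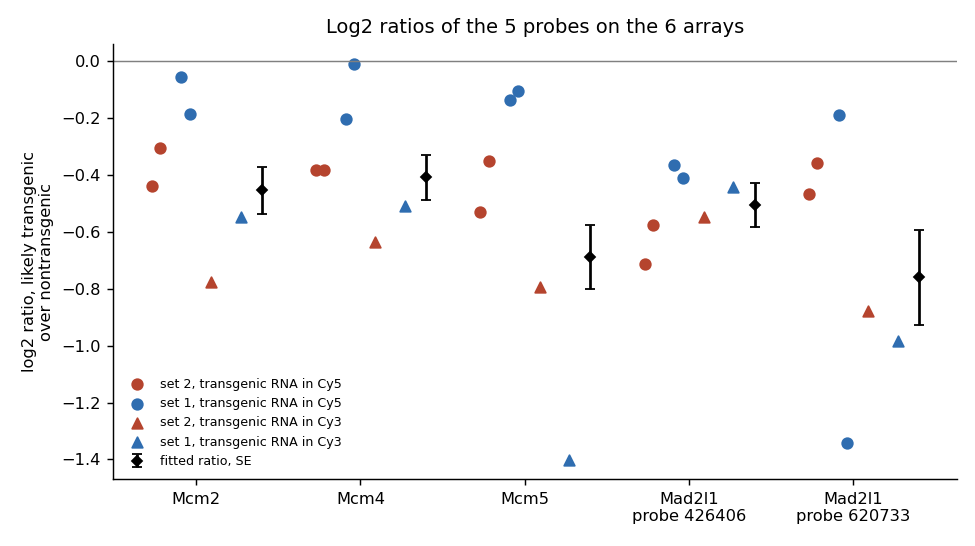
Log2 ratio, likely transgenic over nontransgenic, of each of the 5 probes (x axis); circles are arrays with transgenic RNA in Cy5, triangles arrays with it in Cy3, red is set 2, blue is set 1, and the diamond with its bar is the fitted ratio with its standard error. All 30 points lie below 0, the triangles of Mcm2, Mcm4 and Mcm5 lie below their circles, and the Mcm5 value of 1C is the lowest at -1.40.

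By the limma fit over all rows, with Benjamini-Hochberg adjusted p under 0.05, 210 of 6807 rows were called lower (3.09%) and 274 higher (4.03%). The 4 genes are among the 210 because they were chosen for it, so nothing is read from that count. How far the choice depended on the fit can be counted. With set entered as a random replicate block 0 of the 4 would have been called, where 197 of all rows passed. Without a dye term it was 1 of the 4 and 460 of all rows, and on the 4 Cy5 arrays alone 1 and 1064. In the fit as reported 484 of all rows passed. With 1 Cy5 array left out, 0 of the 4 were called without 2A (168 of all rows) or without 2B (171). The count was 1 without 1A (250 of all rows) and 1 without 1B (204). Fits without 2C or 1C leave 1 array in the Cy3 orientation and are not counted here.

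The place of the genes among all rows of an array takes the spread of that array into account. On 2C, between 1.72% and 3.07% of rows lay below the 4 genes, on 2A between 8.98% and 15.5%, and on 2B between 12.8% and 19.6%. On 1C, whose ratios spread widest, the shares were 2.32% for Mcm5, 8.53% for Mad2l1, 12.9% for Mcm2 and 14.5% for Mcm4, close to those of 2A for the last 3 genes. On 1A and 1B the 3 helicase genes stood among ordinary rows, with 26.3% to 49.4% of rows lower. Mad2l1 stood lower on those arrays, with 19.6% of rows below it on 1A and 6.04% on 1B.

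**Figure D2:**
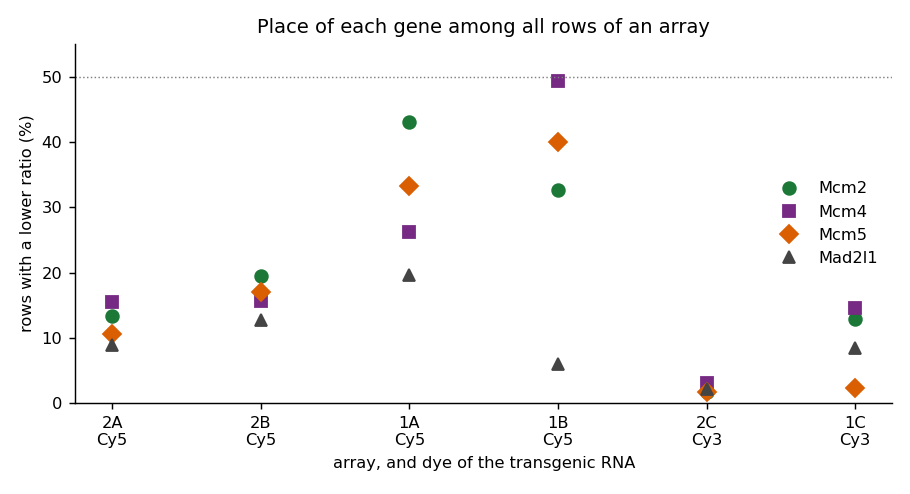
Percent of fitted rows with a lower log2 ratio than each gene (y axis) on each array (x axis, with the dye of the transgenic RNA under it); the dotted line marks the middle row. All 4 genes lie under 3.1% on 2C, while the helicase genes lie between 26.3% and 49.4% on 1A and 1B and Mad2l1 lies at 19.6% and 6.04% there.

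The dye term gives how far the ratios differed between arrays with transgenic RNA in Cy5 and in Cy3. The Cy3 arrays, 2C and 1C, are also the only arrays of letter C, whose meaning the labels do not give. A dye effect and another difference of those arrays cannot be told apart. The dye term comes from the same arrays and the same fit as the values that chose the genes, so it is given as a description. The term, Cy5 over Cy3, was 0.41 ± 0.11 for Mcm5, 0.21 ± 0.08 for Mcm2, 0.16 ± 0.08 for Mcm4 and 0.08 ± 0.09 for Mad2l1 (SE). Over all rows 1 of 6807 passed the limma test for dye (0.0147%), while 1242 reached an unadjusted p under 0.05; 0 of the 4 genes passed, from which nothing is read. In means, Mcm5 stood at -0.28 on the Cy5 arrays and -1.10 on the Cy3 arrays, Mcm2 at -0.25 and -0.66, Mcm4 at -0.24 and -0.57, and Mad2l1 at -0.55 and -0.71. The sign was the same in both orientations, while the size for the helicase genes was larger with transgenic RNA in Cy3. For Mcm2, Mcm4 and Mcm5 both Cy3 arrays lay below all Cy5 arrays. Among the named pathway genes the same held for Mcm6, Pcna, Prim2, Rpa3 and Spc25. It did not hold for Mcm7, Mcm10, Cdc6, Rfc5, Bub1b, E2f1, Cdk1 or Rrm1. The share of all rows that separate in this way was not counted, so nothing is read from it. If the columns of 2C and 1C had not been turned, the same fit would give ratios of 0.21 for Mcm2, 0.16 for Mcm4, 0.41 for Mcm5 and 0.08 for Mad2l1, all above 0, and the negative values would be the dye term.

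The difference between array sets is likewise a description, since the choice of the genes favoured a small spread over these arrays. For Mcm2 the mean was -0.51 ± 0.24 in set 2 and -0.26 ± 0.26 in set 1 (SD, n = 3 each), a difference of -0.25 ± 0.09 (SE). For Mcm4 it was -0.47 ± 0.15 in set 2 and -0.24 ± 0.25 in set 1, a difference of -0.23 ± 0.10 (SE). Among Cy5 arrays alone, both arrays of set 2 lay below both of set 1 for each of the 3 helicase genes. The share of all rows in this order was not counted. The 3 genes also varied together across arrays, so nothing is read from it.

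The set difference of Mcm5 was -0.01, with a 95% interval from -0.60 to 0.58, and that of Mad2l1 was 0.03, from -0.45 to 0.51. Over all 6807 rows 0 passed for set by limma (0%), with 1616 rows at an unadjusted p under 0.05.

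Across the 6 arrays the helicase genes varied together: Pearson's r was 0.88 for Mcm2 and Mcm4, 0.75 for Mcm2 and Mcm5 and 0.76 for Mcm4 and Mcm5, and 0.86, 0.97 and 0.94 without 1C. Spearman's rho was 0.886 for each of these pairs. Mad2l1 followed them less, with r of 0.45 with Mcm2, 0.31 with Mcm5 and -0.01 with Mcm4. These values describe 6 points that share dye orientation and set, and the arrays are not known to be independent.

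The genes most like the mean of the 4 members across the 6 arrays were Sar1b, a GTPase of vesicle budding (r = 0.997), Kdm1b, a histone demethylase (r = 0.996), Vps4a, an ATPase of endosomal sorting (r = 0.993), Clec16a (r = 0.989) and Spns1, a lysosomal transporter (r = 0.988). Their values moved with those of the members from array to array, but around another level: their fitted ratios ran from -0.06 for Sar1b to 0.17 for Spns1, and none passed the threshold (limma adjusted p from 0.195 to 0.833). With 6 points such likeness is common, and 253 of 5610 genes with a value on every array (4.51%) had an r of at least 0.9. Rpa3 was among them (r = 0.91).

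Of the other helicase genes, Mcm6 and Mcm7, further subunits of the ring, and Mcm10, which helps to activate it at origins, were measured. Mcm6 read 0.22 on 2A, 0.15 on 2B, 0.08 on 1A and 0.12 on 1B with transgenic RNA in Cy5, and -0.30 on 2C and -0.19 on 1C with transgenic RNA in Cy3. Its sign thus differed between the orientations, and its fitted ratio was -0.05 ± 0.06 (limma adjusted p = 0.595). Its dye term was 0.19 (limma adjusted p = 0.209). Mcm7 was closer to the members, with -0.34 on 2A, -0.33 on 2B, 0.02 on 1A, 0.03 on 1B, -0.32 on 2C and -0.54 on 1C. It was near 0 on 1A and 1B, the arrays on which Mcm2, Mcm4 and Mcm5 were also nearest to 0. The fitted ratio of Mcm7 was -0.29 ± 0.09 (limma adjusted p = 0.105). Mcm10 went the other way between orientations, from -0.43 to -0.11 on the 4 Cy5 arrays and at 0.00 on 2C and 0.45 on 1C, with a fitted ratio of -0.01 ± 0.09 (limma adjusted p = 0.962).

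The wider list of origin licensing and helicase loading genes, members left out, had 10 tested genes of 27 listed. None passed in either direction by limma. At an unadjusted limma p under 0.05, 4 were lower and 0 higher, against 928 and 960 of all 6807 rows. Of the 10 ratios 8 were below 0, and the median was -0.195, against 0.002 over all rows. Cdc6, the loader that brings the ring to origins, was below 0 on 6 of 6 arrays, from -0.62 on 1C to -0.12 on 1B (fitted -0.31 ± 0.08, limma adjusted p = 0.0802).

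Genes of the replication fork gave 3 of the 4 calls in the pathway. Prim2, the large subunit of the primase that starts new strands, fell by 0.51 ± 0.06 (limma adjusted p = 0.00949, below 0 on 6 of 6 arrays). Rfc5, a subunit of the clamp loader, fell by 0.79 ± 0.14 (limma adjusted p = 0.0292), and Rpa3, the small subunit of the single-strand binding protein, fell by 0.35 ± 0.06 (limma adjusted p = 0.0302), each below 0 on 6 of 6 arrays. Both of these calls were lost with set entered as a replicate block (limma adjusted p = 0.0833 for Rfc5 and 0.0942 for Rpa3) and in 5 of the 6 fits with 1 array left out, all but the one without 2C. Of 18 tested genes 3 fell (16.7%, against 3.09% of all rows), 0 rose, 12 were below 0 and the median was -0.160.

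The mean ratio of each of these 3 genes was further below 0 on the Cy3 arrays than on the Cy5 arrays. Prim2 read from -0.15 to -0.01 on the 4 Cy5 arrays, and -0.93 on 2C and -0.95 on 1C with transgenic RNA in Cy3. The groups of arrays did not overlap; the dye term was 0.43 (unadjusted p = 0.000343, limma adjusted p = 0.132). Rpa3 read from -0.20 to -0.12 on the Cy5 arrays, and -0.44 on 2C and -0.67 on 1C. Rfc5 read from -0.97 to -0.27 on the Cy5 arrays, and -0.77 on 2C and -1.41 on 1C. Pcna, the sliding clamp that Rfc5 and its partners load, was at -0.12 ± 0.06 (limma adjusted p = 0.22), with a mean of 0.00 on the Cy5 arrays and -0.25 on the Cy3 arrays.

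**Figure D3:**
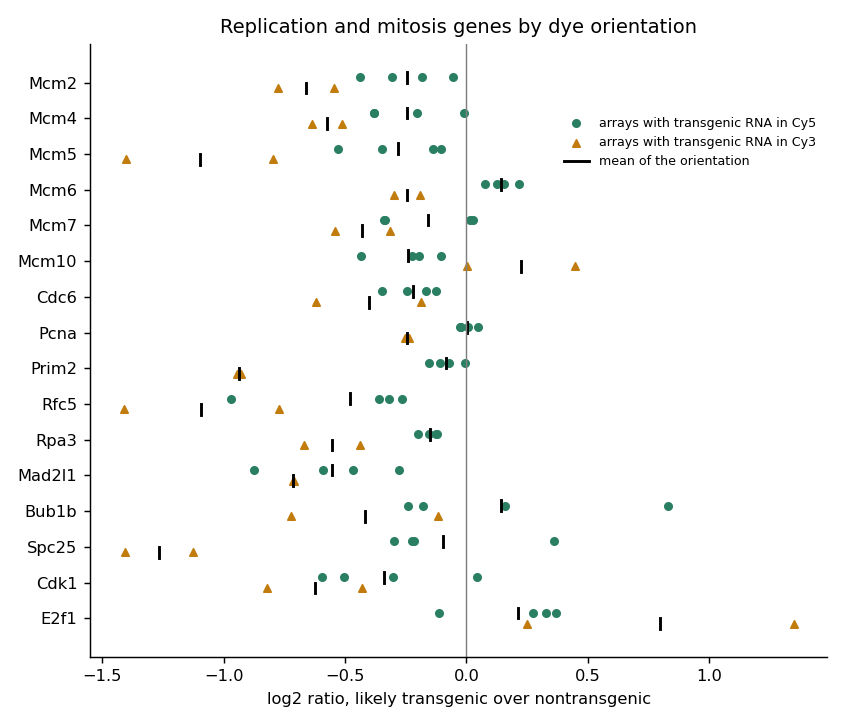
Log2 ratio, likely transgenic over nontransgenic (x axis), of 16 replication and mitosis genes (rows) by array, with the transgenic RNA in Cy5 (green circles) or in Cy3 (orange triangles); black bars are the mean of each orientation. Mcm2, Mcm4 and Mcm5 lie below 0 in both orientations, Mcm6 is above 0 in the Cy5 arrays and below 0 in the Cy3 arrays, and Prim2 stands near 0 in the Cy5 arrays and near -0.94 in the Cy3 arrays.

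Partners of Mad2l1 were few on the array. Of 30 listed checkpoint and kinetochore genes 9 were tested; Spc25, a subunit of the Ndc80 complex that holds microtubules, fell by 0.68 ± 0.11 (limma adjusted p = 0.024, below 0 on 5 of 6 arrays) and 0 rose. The Spc25 call was lost with set entered as a replicate block (limma adjusted p = 0.0727) and in the fits without 2A, without 1A, without 1B or without 1C. Spc25 too differed by orientation, from -0.30 to 0.36 on the Cy5 arrays, and at -1.13 on 2C and -1.41 on 1C. Bub1b, the checkpoint kinase-like protein BubR1 that acts beside Mad2, read from -0.24 to 0.83 on the Cy5 arrays and -0.12 and -0.72 on the Cy3 arrays 2C and 1C (fitted -0.14 ± 0.18, limma adjusted p = 0.626). The median of the 9 genes was -0.138.

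Over all 7 pathway lists, which hold neither the 4 genes nor the D-type cyclins, 87 genes were tested; 4 fell (4.60%, against 3.09% of all rows) and 0 rose (against 4.03%). The 4 members, which the earlier fit had called, are left out, so the count covers the remaining genes only and depends on that choice. The lists too were drawn up with earlier results of these data known. The shares of each list, and of all lists together, are therefore descriptions. Of the 87 ratios 59 were below 0 (67.8%, against 49.7% of all rows), with a median of -0.154. At an unadjusted limma p under 0.05, 27 of the 87 were lower and 2 higher, against 928 and 960 of all 6807 rows. Of the 4, Prim2 alone passed both with set entered as a random replicate block (limma adjusted p = 0.0309) and without each array in turn (limma adjusted p up to 0.0472). Without a dye term the 4 calls were lost, and Top1, a topoisomerase, and Ect2, a regulator of cytokinesis, were called lower in their place. On the 4 Cy5 arrays alone the 4 calls, that of Prim2 among them, were lost as well. There 5 other pathway genes were called lower (Anln, Ect2, Ncaph, Top1 and Wee1), where 1064 of all rows passed.

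The remaining lists held no call. Of 16 genes of mitotic entry, spindle and cytokinesis, 13 were below 0 (median -0.242); Cdk1, the kinase that drives mitosis, was at -0.48 ± 0.11 (limma adjusted p = 0.0623, below 0 on 5 of 6 arrays). Of 19 genes of E2F, Rb and the G1/S kinases, 14 were below 0 (median -0.220), while E2f1 itself was above 0 on 5 of 6 arrays (0.51 ± 0.16, limma adjusted p = 0.118). The 9 genes of the anaphase-promoting complex and cohesin had a median of -0.035. The 6 genes of deoxynucleotide supply had a median of 0.049, with Rrm1, the large subunit of ribonucleotide reductase, at -0.70 ± 0.36 on 5 arrays (limma adjusted p = 0.268).

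**Figure D4:**
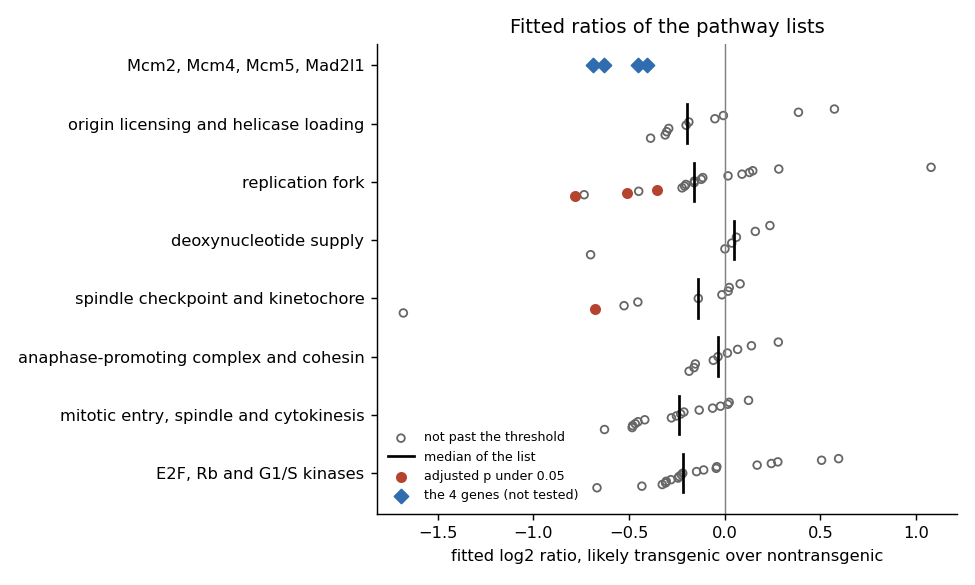
Fitted log2 ratio, likely transgenic over nontransgenic (x axis), of the 87 tested genes of the 7 pathway lists and, in the top row, of the 4 genes; filled red points passed an adjusted p under 0.05, open points did not, and black bars are list medians. The 4 red points are Rfc5, Prim2 and Rpa3 of the replication fork and Spc25 of the kinetochore, all below 0.

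As for Mcm2 and Mcm4, the ratios of the pathway lay lower in set 2 than in set 1; this was not tested. In set 2, 74 of the 87 genes had a mean below 0 and the median was -0.220; in set 1, 47 of 87 were below 0 and the median was -0.050. Over all 6807 rows the counts were 3640 in set 2 and 3274 in set 1. By orientation the lists differed little as a whole, with 63 of 87 below 0 on the Cy5 arrays (median -0.143) and 55 of 87 on the Cy3 arrays (median -0.148). Upstream of the helicase, Ccnd1 and Ccnd2, the D-type cyclins that start G1 progression, stood at -1.42 and -0.85 in set 2 and at -1.07 and -0.38 in set 1.

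Some markers of smooth muscle, and of other cells that an explant could give, passed in the same comparison. Of 6 tested fibroblast markers Thy1 and Mfap5 were called higher and 0 lower, with 4 ratios above 0. Col1a1 stood lowest at -1.21 (limma adjusted p = 0.0752) and Thy1 highest at 2.73. At an unadjusted limma p under 0.05, 4 fibroblast markers were higher and 1 lower, where 960 of all 6807 rows were higher and 928 lower. Of 3 smooth muscle markers Cnn1 rose (0.59), while Smtn (-0.05) and Cald1 (-0.12) lay below 0 without passing. Of 2 epithelial markers Cdh1 rose, and of 3 cartilage markers Col11a1 fell. None of 3 leukocyte and 2 endothelial markers passed by limma, with 1 of each lower at an unadjusted p under 0.05. The part of these cells in the ratios of the 4 genes was not tested.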

How the data were processed

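For each of 6 two-colour arrays the deposited table gives a log2 ratio at each probe. Complementary DNA was labelled, per the labels' protocols, with Cy3 or Cy5 and hybridised competitively to printed slides; scanner, background correction, normalization, filters and ratio direction were each not given in the sources used here. Array medians of the deposited log2 values lay between -0.0012 and 0.0007, so they were already centred. The lowest value, a ratio of 0.01, is a floor that no member reached. Signal behind a ratio is unknown. The stated precision rests on the spread between arrays, which are not known to be independent.

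Of 8734 probes, 7540 had 1 symbol in the platform annotation, 14 several and 1180 none; 7493 matched a GRCm38.p6 gene by Entrez ID. Probes of 1 symbol were averaged per array. Rows measured on 4 or more arrays, with each dye orientation among them, entered the fit (6807 rows, 5644 named). limma 3.58.1 in R 4.3.3 (lmFit, eBayes) was fitted with a transgenic and a dye coefficient, a further set term for the set comparison, and Benjamini-Hochberg adjustment over all rows at 0.05; it was tested on simulated data with known shifts. The named genes were the 4 members, the pathway genes past the threshold, a fixed set of core pathway genes where measured, the D-type cyclins, and the 5 genes most correlated with the members' mean. Members and lists were chosen with earlier results of these data known. Alternatives were the set as a replicate block, no dye term, turned signs, missing floor values, other filters, scale and quantile normalization, array weights, robust variances, the Cy5 arrays alone, set means, single probes and each array left out. The check of the overexpressed gene is not reported here. Promoters came from RefSeq (GRCm38.p6). Figures used Python 3.11.15 and matplotlib 3.10.9.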

Additional observations from a re-analysis of the deposited data

Results flagged for a closer look

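Of 21 series of values over the arrays that were examined (the members, the probes of Mad2l1 and the named pathway genes), 1 had an array far from the others. E2f1 read 1.35 on array 1C, against -0.11 to 0.37 on the other 5 arrays. That gap was 0.669 of the whole range, above Dixon's critical value of 0.625. Chance flags about 1 such series in 20.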

How the results depend on the processing

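The 4 genes were chosen as lower on these arrays, and all 30 values of their probes lay below 0. Their sign was thus largely fixed beforehand, and nothing is read from its staying the same. The fitted ratios of the 4 genes stayed below 0 under each of 17 alternatives that kept the signs of 2C and 1C. They ran from -0.55 to -0.25 for Mcm2, -0.48 to -0.24 for Mcm4, -0.84 to -0.28 for Mcm5 and -0.69 to -0.55 for Mad2l1. With the signs of 1C and 2C turned they were 0.2086, 0.1646, 0.4086 and 0.0801, 0 pathway genes and 1 of all rows were called for the transgene, and 484 for dye, as the terms exchange places by construction. Of the pathway genes, 4 lower in the fit as reported, 1 was called with the replicate block, 2 without a dye term, 7 with scale and 8 with quantile normalization, 1 with array weights, 0 with set means, and 1 to 12 with an array left out; 0 to 10 were called higher with an array left out, the 12 and the 10 both without 2C. Of the 6 fits with an array left out, Rfc5 and Rpa3 were called in the one without 2C, and Spc25 in those without 2B or 2C. Of all rows, 484 as reported, 197 passed with the replicate block, 159 with array weights, 1064 on the 4 Cy5 arrays, 0 with set means (n = 2; 920 at an unadjusted limma p under 0.05) and 168 to 1687 with an array left out, the 1687 without 2C. Leaving out 2C or 1C leaves 1 array in that orientation, whose spread is then taken from the others. Dye calls were 0 with floor values missing and 1 to 990 with an array left out. Set calls, 0 as reported, were 3 with scale and 5 with quantile normalization and 518 with array weights. On the 4 Cy5 arrays alone 5 pathway genes were called lower and 0 higher, and 0 of these were called in the fit as reported. The causes of these shifts were not tested. Signal over background is unknown and limits every ratio near 0.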
